A study of Rattus norvegicus with 8 samples.

Results

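The genes described here are 9 myelin genes of the rat hippocampus: Mbp, Mal, Ugt8, Cldn11, Mog, Mag, Mobp, Cnp and Pllp. They were picked by name with earlier results of these data known, so the counts and p-values below are not independent of that choice. Every probe set whose only gene symbol is one of them was taken. This gave 16 probe sets among 20826 with a single symbol, and 9 of 14217 gene symbols. A probe set is the group of probes that reports 1 transcript on the array. Mbp and Mobp had 3 probe sets each, Ugt8, Cldn11 and Cnp had 2, and Mal, Mog, Mag and Pllp had 1. The brightest probe set stands for the gene unless another is named, and the others are given with it.

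Signal was measured on 8 expression arrays, each with total RNA pooled from 15 slice cultures, explants of rat hippocampus kept in a dish. The pyramidal cell fields CA1 and CA3 were dissected from the cultures, and the labels give a time of 7 days for every array. There were 3 control arrays and 1 lesion array for each field. The labels name no strain, age or treatment beyond this, and do not say how the lesion was made or when the count of days began. The control arrays carry the numbers 1, 2 and 3 in both fields and both lesion arrays carry the number 1, but the labels do not say what a number marks. Nothing in them says that arrays came from separate animals, and p-values therefore cover the spread among these arrays alone, part or all of which may be technical.

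Myelin is the stack of membrane layers that oligodendrocytes wrap around axons. Its inner faces are held together by basic proteins, its layers are sealed by tight junction strands, and its outer leaflets are rich in galactolipids. Slice cultures prepared from young animals form myelin while they are kept in the dish.

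All 9 genes differed several-fold between arrays of the same label. In each field control 1 was the lowest of the 3 controls and control 3 the highest for every one of the 9 genes, an order that 6.34% of all 18625 probe sets tested showed in both fields. Lesion arrays lay close to control 3 and far above control 1. Because the tissue was measured in bulk, fewer oligodendrocytes and less myelin RNA per cell cannot be told apart anywhere in these results.

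Among the structural proteins of compact myelin, Mbp encodes myelin basic protein, which binds the inner faces of the membrane together. Its intensity was 47660, 221869 and 439668 in CA1 controls 1, 2 and 3 and 397647 in the CA1 lesion array. In CA3 it was 63522, 194016 and 283467 in the controls and 449872 in the lesion array. The lesion array was thus the highest of the CA3 arrays and lay between controls 2 and 3 in CA1. A second Mbp probe set (1387341_a_at) had the same order at lower signal, with 585, 1779 and 5363 in the CA1 controls and 4956 in the lesion array, and with 618, 2424 and 5285 in the CA3 controls and 5422 in the lesion array. The third (1383479_at) was dim, did not pass the filter on low values and had another order, with control 2 highest in both fields and a CA3 lesion value of 110 within the control range of 78.6 to 402.

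Mobp encodes myelin-associated oligodendrocyte basic protein, another small basic protein of compact myelin. It stood at 3571, 28096 and 83874 in the CA1 controls and 69412 in the CA1 lesion array. In CA3 the controls were at 4597, 33668 and 67074 and the lesion array at 65660. For this probe set both lesion arrays lay just under control 3 of their field. The probe set 1368263_a_at ran from 877 in CA3 control 1 to 20613 in the CA3 lesion array, and 1370500_a_at from 27.1 in CA1 control 1 to 3911 in the CA1 lesion array. In 1368263_a_at the lesion array lay above all controls in CA3 and under control 3 in CA1. In 1370500_a_at it lay above all controls in CA1 and under control 3 in CA3.

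Mal and Pllp encode small proteolipids with 4 membrane spans, which take part in sorting membrane to myelin. Mal intensity was 401, 639 and 4884 in the CA1 controls and 5397 in the CA1 lesion array, so that control 2 lay near control 1. In CA3 it was 805, 2590 and 5362 in the controls and 5704 in the lesion array. Pllp (plasmolipin) had the widest range of the 9 genes, from 248 in CA1 control 1 through 3510 and 13541 in controls 2 and 3 to 21252 in the CA1 lesion array. Its CA3 values were 1209, 3893 and 13696 in the controls and 16987 in the lesion array. For both genes the lesion array exceeded all controls of its field.

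Cldn11 encodes claudin 11, the protein of the tight junction strands between myelin layers. Its intensity was 3901, 23334 and 90456 in the CA1 controls and 90540 in the CA1 lesion array, which equals control 3 to within 0.0013 on the log2 scale. In CA3 it was 4806, 28723 and 101536 in the controls and 112686 in the lesion array. Its dim second probe set (1369609_at), which did not pass the filter, ran from 45.1 in CA1 control 1 to 669 in CA3 control 3, and both lesion arrays lay below control 3.

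Mog encodes a glycoprotein of the outermost myelin surface and Mag an adhesion protein of the innermost layer, next to the axon. Mog stood at 349, 2105 and 5043 in the CA1 controls and 6503 in the CA1 lesion array, and at 977, 2277 and 4833 in the CA3 controls and 5871 in the CA3 lesion array. Mag stood at 1031, 3304 and 7612 in the CA1 controls and 7704 in the CA1 lesion array, and at 1054, 2382 and 5982 in the CA3 controls and 6742 in the CA3 lesion array. Both genes were highest in the lesion array of each field, Mag in CA1 by 0.017 on the log2 scale.

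The enzymes were Cnp, a phosphodiesterase that helps keep cytoplasmic channels open in myelin, and Ugt8, which makes galactosylceramide. Cnp was at 5386, 17213 and 34623 in the CA1 controls and 38702 in the CA1 lesion array, and at 4765, 12023 and 31588 in the CA3 controls and 33232 in the CA3 lesion array. Its other probe set (1370693_a_at) ran from 1849 in CA3 control 1 to 11309 in the CA3 lesion array. In CA1 its lesion value of 9786 lay below that of control 3, at 10520. Ugt8 was at 83.6, 965 and 1982 in the CA1 controls and 4318 in the CA1 lesion array, and at 275, 727 and 3503 in the CA3 controls and 2797 in the CA3 lesion array. In its brightest probe set Cnp thus exceeded all controls in both fields, whereas Ugt8 did so in CA1 and lay under control 3 in CA3. The second Ugt8 probe set (1368857_at) did not pass the filter and stayed between 11.1 and 175.

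**Figure D1:**
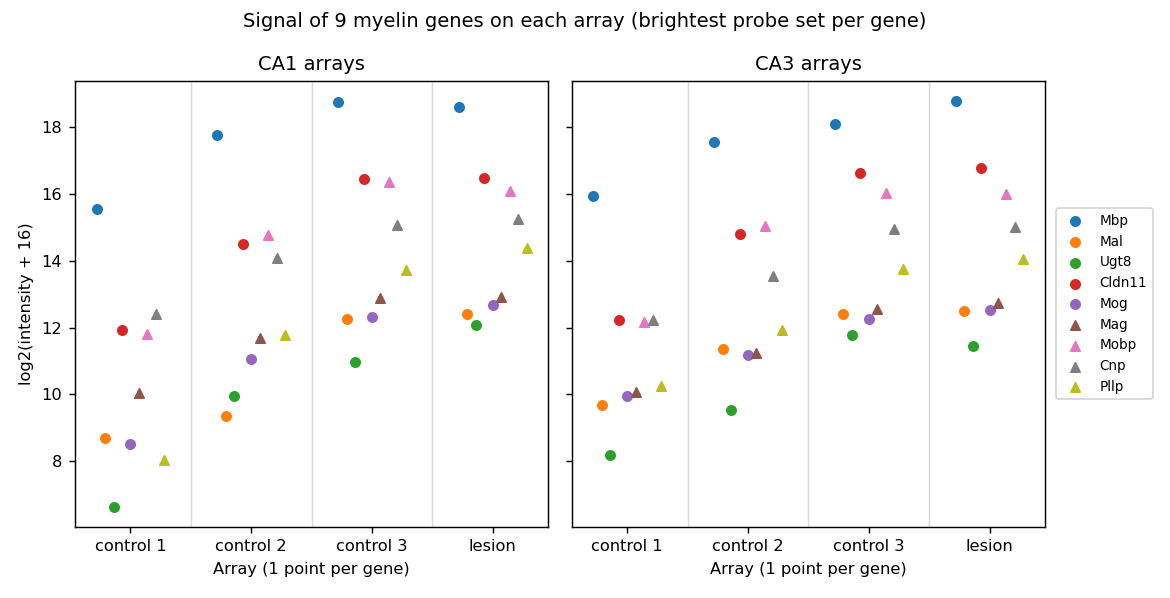
Log2(intensity + 16) on the vertical axis for the brightest probe set of each of the 9 genes on the 4 CA1 arrays (left) and the 4 CA3 arrays (right), with 1 point per gene and array. Points of 1 colour are to be compared across arrays, not with other colours, and each gene is lowest in control 1, while control 3 and the lesion array lie close together.

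Promoter sequences are shown for 3 genes as a description, and whether promoters had a part in the array values was not tested. The windows of Mag and Cnp share a run around a match for an oligodendrocyte factor, and that of Mobp has the most matches of the 9 windows, while matches in the others are only counted. The RefSeq promoter table (build GRCr8) had windows for 8 of the 9 genes (all but Mog), 9 windows in all, each from 250 bases before to 50 bases after the start of a gene. Motifs of 3 kinds were searched on both strands. The SOX core, bound by SOX10 among other SOX proteins, was read as A or T, A or T, CAA, A or T, and G. The motif of MYRF, the myelin regulatory factor, was CTGGCAC or CTGGTAC, and the E-box was CAGCTG. None of these motifs overlapped in the windows below, which are written in the direction of the gene with the matches in capitals.
Mag (chr1:95290995-95291294, minus strand): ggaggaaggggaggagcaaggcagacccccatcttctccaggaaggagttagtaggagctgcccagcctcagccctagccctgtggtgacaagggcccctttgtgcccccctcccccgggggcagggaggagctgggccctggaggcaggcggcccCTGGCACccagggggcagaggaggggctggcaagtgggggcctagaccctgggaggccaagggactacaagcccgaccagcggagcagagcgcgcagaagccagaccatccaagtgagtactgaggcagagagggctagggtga
Cnp (chr10:86011254-86011553, plus strand): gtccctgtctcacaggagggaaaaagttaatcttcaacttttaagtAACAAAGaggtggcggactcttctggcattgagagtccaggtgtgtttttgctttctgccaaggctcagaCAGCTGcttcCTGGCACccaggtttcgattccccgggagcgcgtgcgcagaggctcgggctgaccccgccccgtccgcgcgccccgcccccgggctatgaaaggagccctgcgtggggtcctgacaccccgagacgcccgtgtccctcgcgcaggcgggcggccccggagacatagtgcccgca
Mobp (chr8:128746982-128747281, plus strand): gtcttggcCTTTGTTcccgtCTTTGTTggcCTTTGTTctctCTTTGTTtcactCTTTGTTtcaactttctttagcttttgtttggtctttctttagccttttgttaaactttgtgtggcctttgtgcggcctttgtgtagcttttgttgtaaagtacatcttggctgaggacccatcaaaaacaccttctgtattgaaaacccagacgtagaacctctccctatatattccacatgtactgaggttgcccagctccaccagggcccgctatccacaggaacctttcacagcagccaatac

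The Mag window held 1 MYRF match, which began at position -94 from the start, and the Cnp window held 1, at -124, beside a SOX match at -204 and an E-box at -134. The longest run shared by these windows was CCTGGCACCCAGG, 13 bases that contain the MYRF match in both. Only this pair of windows was searched for a shared run, and how often other pairs share 1 of this length is not known. Mobp had 5 SOX matches, at positions -242 to -197, all of the letters CTTTGTT on the strand shown. Of all 33469 promoter windows, 4 held 5 or more (that of Mobp among them), or 0.012%. Mobp was picked for having the most matches of the 9 windows. Its matches repeat the same letters within a short stretch, so they need not be separate sites. MYRF matches were found in 4 of the 9 windows (those of Mag, Cnp, Mal and Cldn11), against 6.78% of all windows. SOX matches were found in 3 of 9 (Mobp, Cnp and 1 of the pair of Mbp windows), against 25.5%, and E-boxes in 2 of 9, against 15.1%. A match only says that these letters are present.

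Control 3 was compared with control 1 with the field taken into account. Of the 16 probe sets, 13 passed the filter and were tested, and 13 passed the threshold, all higher in control 3, where 4.51% of the 18625 probe sets passed in either direction and 2.87% as higher. Pllp was 24.0-fold higher (log2 difference 4.58 ± 0.43, SE, 2 arrays per number, limma adjusted p = 6.21e-05), and Cldn11 22.1-fold (4.46 ± 0.15, limma adjusted p = 1.50e-08). The Mobp probe sets differed by 4.21, 4.16 and 4.46 on the log2 scale and Ugt8 by 3.96, or 15.6-fold. Smaller differences were those of Mal (8.77-fold), Mog (8.23-fold), Cnp (6.51-fold), Mbp (6.42-fold) and Mag (6.39-fold). The limma adjusted p-values of the 13 probe sets ran from 1.50e-08 to 0.00552. The median over the 9 genes was 3.13, against -0.006 over all probe sets tested.

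These calls rested on few arrays, with 2 residual degrees of freedom. In a limma fit without an intensity trend in the variances, 0 of 13 passed (smallest adjusted p = 0.103), and 13 of 13 had an unadjusted p under 0.05, as did 2270 of all 18625. With the trend, 13 of 13 and 17.3% of all had one. Without CA1 control 3 the probe sets of Mal, Ugt8 and Mog and the dimmest tested probe set of Mobp did not pass (limma adjusted p = 0.109, 0.127, 0.0704 and 0.251), and without CA3 control 3 those of Ugt8 and the same Mobp probe set did not (0.211 and 0.0743). The differences stayed above 2.2 on the log2 scale for the 9 genes with any array left out. Pllp moved most, between 3.52 and 5.65, whereas Cldn11 stayed between 4.40 and 4.53.

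Both fields gave the same direction for the brightest probe set of each gene. Control 3 exceeded control 1 by a median of 3.79 on the log2 scale over the 9 genes in CA1 and 2.73 in CA3, while the median over all probe sets was 0.013 and -0.025. Control 2 lay between them, above control 1 by a median of 2.54 in CA1 and 1.61 in CA3 and below control 3 by 1.25 and 1.32. Pllp differed most in CA1 between controls 3 and 1, by 5.68, and Cldn11 most in CA3, by 4.40. Cldn11 had nearly the same size in both fields (4.53 in CA1), as did Cnp (2.68 and 2.72), whereas Pllp (5.68 and 3.48) and Mog (3.79 and 2.29) differed more in CA1. Each of these is a difference of 2 single arrays and has no replicate error of its own.

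The fields themselves were not separated. In the comparison of CA3 with CA1 controls (3 arrays each), limma called 0 of 13 tested probe sets where 0.526% of all probe sets passed. At an unadjusted p under 0.05 there were 0 of 13, against 8.31% of all. The differences ran from -0.28 for Cnp to 1.12 for the dimmest tested Mobp probe set, with SEs of 0.607 to 1.34, and the median over the 9 genes was 0.26. Mal differed by 1.03 ± 0.87 (SE, limma adjusted p = 0.794), from a mean log2 value of 10.11 in CA1 to 11.14 in CA3. The control ranges of the fields overlapped for all 16 probe sets, whereas 14.9% of all probe sets tested had control ranges that did not. The within-field SD of log2 values was 1.35 to 2.89 over the 9 genes in CA1 and 1.12 to 2.21 in CA3, so a difference between fields of about this size would not have been detectable.

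**Figure D2:**
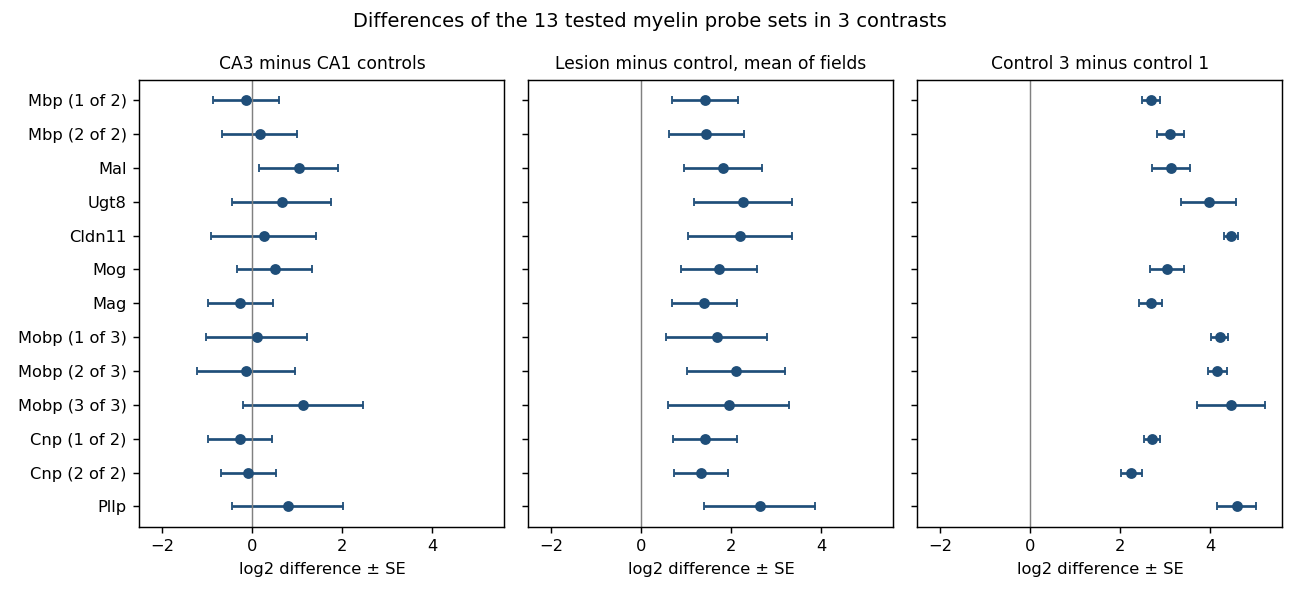
Log2 difference with its SE (bars) for the 13 tested probe sets in the CA3 minus CA1 control contrast, the lesion minus control contrast averaged over fields, and the control 3 minus control 1 contrast. The last panel has the largest differences and the shortest bars, from 2.25 to 4.58, while the region panel is centred near 0.

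Lesion arrays were compared with the mean of the controls of their field. Averaged over both fields, the 9 genes were higher by a median of 1.73 on the log2 scale, against 0.02 over all probe sets tested, but 0 of 13 tested probe sets passed in limma, and 0% of all probe sets did. At an unadjusted p under 0.05 there were 0 of 13, where 6.41% of all probe sets reached it, and the smallest unadjusted p of the 13 was 0.0531, for the second Cnp probe set. Pllp was 6.20-fold higher (log2 2.63 ± 1.24, SE, limma adjusted p = 0.776, from 2 lesion arrays and 6 controls), Ugt8 4.80-fold (2.26 ± 1.09) and Cldn11 4.57-fold (2.19 ± 1.16). Mal was at 3.53-fold, Mog at 3.31-fold, Mobp at 3.20-fold, Cnp at 2.67-fold, Mbp at 2.66-fold and Mag at 2.65-fold. The SEs, 0.607 to 1.34, hold no spread of lesion arrays, because a group of 1 array has none and was given that of the controls. In limma each variance was also drawn toward that of all tested probe sets of like intensity. An SE is therefore not the control spread of its probe set alone.

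Which control served as the reference set the size of the lesion difference. Against control 1 the 9 genes were higher by a median of 4.16 in CA1 and 2.82 in CA3, against control 2 by 1.62 and 1.47, and against control 3 by 0.14 and 0.15. All 9 genes were higher than controls 1 and 2 in both fields. Against control 3, 7 of 9 were higher in each field, Mobp and Mbp being lower in CA1 (-0.27 and -0.14) and Ugt8 and Mobp lower in CA3 (-0.32 and -0.031). The largest excess over control 3 was that of Ugt8 in CA1, at 1.12, and that of Mbp in CA3, at 0.67. Since these comparisons share the lesion array, they are not independent of each other. A fit with the title number as a replicate block sets each lesion array mainly against control 1. In that fit the median over the 9 genes was 3.36 for the mean lesion effect. Its calls differed from those of the main fit and are given in the closing section.

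Lesion arrays lay above all 3 controls of their field for 7 of 9 genes in CA1, where 21.2% of all probe sets tested did, and for 7 of 9 in CA3, where 29.7% did. In both fields at once this held for 6 genes, Mal, Cldn11, Mog, Mag, Cnp and Pllp, against 7.98% of all probe sets. The margins were small beside the spread of the controls, from 0.0013 for Cldn11 in CA1 to 0.65 for Pllp in CA1 among these 6 genes. Counted over all 16 probe sets, 9 lay above all controls in CA1 and 10 in CA3. The second probe set of Cnp did not in CA1, and that of Cldn11 did not in either field.

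Leaving out control arrays moved the lesion difference in both directions. Without control 1 of both fields the median over the 9 genes was 0.91 and 0 of 13 probe sets passed in limma. Without control 3 of both fields it was 2.59, and 2 of 13 passed, Mal (2.67, limma adjusted p = 0.0249) and the second Cnp probe set (1.90, limma adjusted p = 0.0403), where 0.977% of all probe sets did. The lesion contrast and the control 3 minus control 1 contrast share these control arrays.

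**Figure D3:**
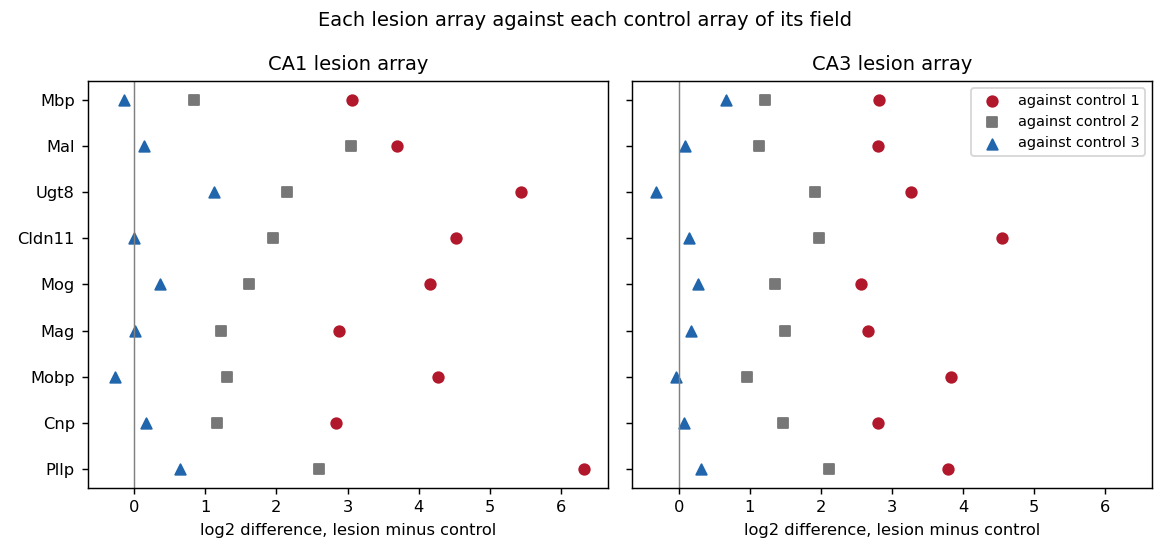
Log2 difference of the CA1 lesion array (left) and the CA3 lesion array (right) from each control array of its field, with 1 row per gene and 1 marker per control. Differences from control 1 reach 6.33 for Pllp in CA1, while those from control 3 lie near 0, between -0.32 and 1.12.

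Within a field, 0 of 13 probe sets passed for the lesion effect in CA1, where 0% of all probe sets passed and an unadjusted p under 0.05 was reached by 3.63%, or in CA3, where 0% passed and 4.68% did. At an unadjusted p under 0.05 in limma there were 0 of 13 in each. The median over the 9 genes was 2.05 in CA1 and 1.57 in CA3. Pllp was 9.13-fold higher in CA1 (3.19 ± 1.75, SE, 1 lesion array against 3 controls, limma adjusted p = 0.999) and 4.21-fold in CA3 (2.08 ± 1.75, limma adjusted p = 0.937). Cldn11 stood at 2.16 in CA1 and 2.22 in CA3, Mag at 1.37 and 1.44 and Cnp at 1.39 and 1.45. Ugt8, at 2.90 and 1.62, and Mal, at 2.30 and 1.34, had larger values in CA1. The difference between the fields in the lesion effect was tested itself, and 0 of 13 passed in limma (0 with an unadjusted p under 0.05, where 3.09% of all probe sets had one and 0% passed). It ran from -1.52 to 0.35 over the 13 probe sets, with SEs of 1.21 to 2.67, which leaves differences of several-fold undetectable.

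Other genes of the oligodendrocyte were read from lists of names, which are described by their counts and medians. For these and all later lists, 2.87% of all probe sets tested passed as higher in control 3 against control 1. For the mean lesion effect 0% of all passed, and 6.41% had an unadjusted p under 0.05. Of 12 tested genes for further myelin proteins, 6 rose in control 3 against control 1 (median 1.14), and 11 of 12 were higher in the mean lesion effect (median 0.83, 0 passed in limma, 3 with an unadjusted p under 0.05). Those 6 were Evi2a (4.76), Bcas1 (4.16), Ermn (3.63), Tspan2 (3.24), Gpr37 and Cd9 (0.79). The genes of the list with the smallest p for the lesion effect were Gpr37, a receptor of differentiating oligodendrocytes (1.48 for control 3 minus control 1, limma adjusted p = 0.00202, and 1.23 for the lesion effect), Gpm6b, a relative of proteolipid protein (0.22 and 0.47), the junction protein gene Jam3 (0.63 and 0.53) and the deacetylase gene Sirt2 (0.67 and 0.55). Of these 4, only Gpr37 passed for control 3 minus control 1. Of 7 tested sphingolipid and related enzymes, 3 rose in control 3 (median 1.49) and 5 were higher in the lesion effect (median 0.95, 0 passed in limma, 1 with an unadjusted p under 0.05). Those that rose were Aspa, which frees acetate for lipid synthesis (2.20, limma adjusted p = 0.00219), the fatty acid elongase gene Elovl1 (1.56) and the ceramide synthase gene Cers2 (1.49), while Fa2h, which makes the hydroxylated fatty acids of myelin lipids, did not pass (1.05, limma adjusted p = 0.371).

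Gap junction and enzyme genes of oligodendrocytes had a median of 3.0 for control 3 minus control 1, with 3 of 6 passing as higher, and of 1.47 in the lesion effect, with 6 of 6 higher, 0 passing in limma and 0 with an unadjusted p under 0.05. Those that rose were Enpp2, or autotaxin (3.54, limma adjusted p = 1.75e-05), the proteinase gene Adamts4 (3.06) and the myelin-degrading proteinase gene Klk6 (2.71), while Ppp1r14a did not pass (3.90, limma adjusted p = 0.128). Oligodendrocyte transcription factors differed less. Of 5 tested, Myrf alone rose in control 3 (1.49, limma adjusted p = 0.0225), and the list median was 0.60, with 0.33 for the lesion effect. Sox10 differed by 1.61 (limma adjusted p = 0.286), Zfp536 by 0.36 and Olig1 by 0.21. Another 4 factors of the list, Olig2 among them, had signals under the filter. Of 3 tested precursor genes, Pdgfra, the growth factor receptor of precursors, rose in control 3 (1.89, limma adjusted p = 0.0221), while Ptprz1 and Vcan stood at 0.25 and 0.60. Their median for the lesion effect was 0.29.

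Genes of the axonal side of myelin had other values. The 9 tested genes act at the node, the gap between myelin segments, or beside it. They had a median of -0.069 for control 3 minus control 1 and -0.24 for the lesion effect. In either contrast 0 passed in limma (1 in each had an unadjusted p under 0.05). Cntn2 was at -1.61 in the lesion effect (limma adjusted p = 0.771), Ank3 at -0.80, Kcna2 at -0.62 and Nfasc, which also has a glial form, at 0.45. Schwann cell genes, which would mark myelin of peripheral type, had 4 tested members with a median of 0.57 for control 3 minus control 1. Of these Pmp22 (0.95, limma adjusted p = 0.0168) and Egr2 (1.79, limma adjusted p = 0.0046) rose, both of which are also expressed outside Schwann cells, while Prx, a defining Schwann cell gene, was at 0.19 (limma adjusted p = 0.918) and Drp2, which encodes a partner of periaxin, at -0.44 (0.594). For the lesion effect the median was -0.019 (0 passed in limma, 0 with an unadjusted p under 0.05), with Prx at 0.84, Pmp22 at 0.37, Drp2 at -0.41 and Egr2 at -0.84.

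Most markers of microglia were, like the myelin genes, higher in control 3 and the lesion arrays than in control 1. The 14 microglia genes had a summed intensity of 8598, 25850 and 132600 in CA1 controls 1, 2 and 3 and 186400 in the CA1 lesion array, and of 8943, 19160 and 109700 in the CA3 controls and 135000 in the CA3 lesion array. Of 12 tested, 10 rose in control 3 (median 3.39), where 2.87% of all probe sets did. In the lesion effect 12 of 12 were higher (median 2.60, 0 passed in limma). An unadjusted p under 0.05 was reached by 10 of the 12, against 6.41% of all probe sets. Among the 12, Ly86 was at 2.22 and 2.70 in these contrasts in turn and Aif1 at 2.67 and 2.72. Fcer1g was at 3.30 and 2.27 and the complement gene C1qa at 4.83 and 3.13. These contrasts leave out control 2, which for Ly86, Aif1 and Tyrobp lay below control 1 in both fields, unlike the 9 myelin genes. Ly86 went from a log2 value of 9.17 to 7.43 in CA1 and from 9.45 to 8.95 in CA3. Fcer1g and C1qa were higher in control 2 than in control 1 in both fields. Cx3cr1 (0.20, limma adjusted p = 0.966) and Tyrobp (1.77, limma adjusted p = 0.0546) did not pass for control 3 minus control 1. Ptprc and Itgam had signals under the filter, and the lowest intensity in CA1 control 1 was that of Ptprc, at 48.1. None of the 14 was at 0.

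Neuronal genes ran the other way. Their summed intensity over 11 genes was 296800, 290000 and 221300 in the CA1 controls and 223600 after the CA1 lesion, with CA3 values of 459200, 458000 and 326100 in the controls and 314000 in the lesion array. Of 11 tested, 4 fell in control 3 against control 1 (median -0.50), where 1.64% of all probe sets fell, among them Neurod6 (-0.92) and Rbfox3 (-1.12), and all 11 were lower in the lesion effect (median -0.32, 0 passed in limma, 2 with an unadjusted p under 0.05). Astrocyte genes had medians of 0.31 and 0.32 in these contrasts in turn. For control 3 minus control 1, 2 of 10 passed, Gja1 (0.63) and S100b (0.70). In the lesion effect 9 of 10 were higher and 0 passed in limma. An unadjusted p under 0.05 was reached there by 2, Fabp7 (0.50) and Gja1 (0.56). The summed intensity of the astrocyte list ran from 960900 in CA3 control 1 to 1557000 in the CA3 lesion array. Meningeal and fibroblast genes had medians of 0.13 and 0.11 over 7 genes, and endothelial genes of 0.60 and -0.61 over 2 tested genes, with 0 passing in limma in either list and contrast (at an unadjusted p under 0.05, 2 meningeal genes for control 3 minus control 1 and 1 for the lesion effect, and 0 endothelial genes). Whether these cell types had a part in the myelin values was not tested.

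**Figure D4:**
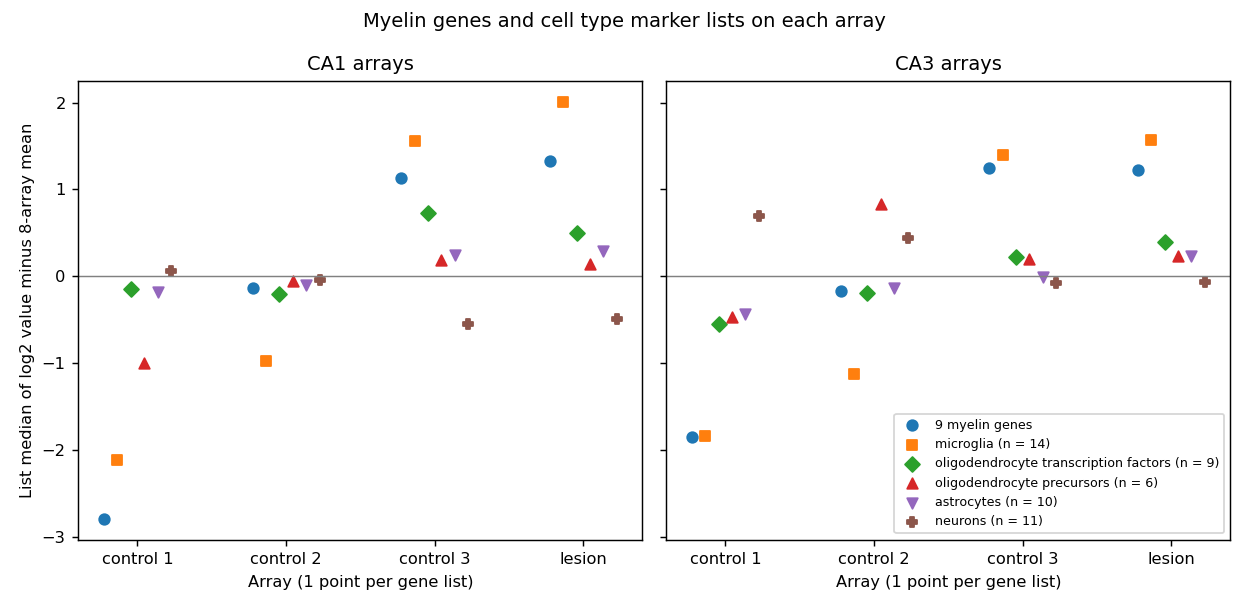
Median over the genes of each list of the log2 value minus the mean of the 8 arrays, for the CA1 arrays (left) and the CA3 arrays (right), with 1 point per list and array. The myelin genes run from -2.79 in CA1 control 1 to 1.32 in the CA1 lesion array, the microglia list runs from -2.11 to 2.01 between these arrays, and the neuronal list is lower in control 3 and the lesion arrays than in controls 1 and 2 of the same field.

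The genes most like the 9 were sought by their correlation over the 8 arrays with the mean profile of the 9 genes, as a description of these arrays, which share the low level of control 1. The 9 genes had Pearson correlations of 0.927 for Mal to 0.993 for Cldn11 with that mean, to which they contribute, while the dim probe sets of Mbp and Ugt8 had 0.348 and 0.298. Among 10835 other genes, 247, or 2.28%, had a correlation of 0.9 or more. The 12 highest, from 0.994 to 0.984, were Slc12a2, Laptm5, Evi2a, Apod, Lyz2, Cers2, C1r, Kctd14, Clec7a, Enpp2, Enpp4 and Gltp. Of these Cers2, Enpp2 and Evi2a stand in the oligodendrocyte lists above, and Laptm5 in the microglia list. Lyz2 and Clec7a are genes of phagocytes, and Gltp encodes a glycolipid transfer protein. Slc12a2, a chloride importer, stood at log2 values of 12.71, 14.20 and 15.27 in the CA1 controls and 15.26 in the lesion array, and at 13.36, 14.38 and 15.12 in the CA3 controls and 15.51 in the lesion array. Apolipoprotein D (Apod) stood at 12.33, 13.82 and 15.06 and then 15.42 in CA1, and at 12.53, 14.12 and 15.14 and then 15.50 in CA3. Both had their lowest value in control 1 of each field.

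Array signal was alike in level. Median intensity ran from 561 to 815 over the 8 arrays, and correlations of log2 values over probe sets (not independent replicates) ran from 0.857 to 0.931 for pairs of arrays. The neuron and astrocyte lists had all of their 11 and 10 genes above the filter. Array control probe sets for Gapdh give a 3' to 5' signal ratio, a sign of RNA quality that is higher for broken RNA. In CA1 it stood at 3.71 in control 1, where the myelin genes were lowest, at 4.98 in control 2 and at 5.0 in control 3. In CA3 the controls had ratios of 3.84, 3.75 and 3.93, while the 9 genes differed by a median of 2.73 on the log2 scale between controls 3 and 1. The lesion arrays had ratios of 4.65 (CA1) and 5.23 (CA3). The same ratio for Actb was 14.5, 22.2 and 18.3 in CA1 controls 1, 2 and 3 and 17.3 in the lesion array. In CA3 it was 21.4, 20.3 and 15.0 in the controls, lowest in control 3, where the myelin genes were highest, and 19.8 in the lesion array. The part of RNA quality in the myelin values was not tested.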

How the data were processed

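Total RNA of 8 rat hippocampal culture samples was hybridised to expression arrays, and the groups were read from the sample titles. The authors deposited 1 linear intensity per probe set and array. Their 2% trimmed mean lay between 2500.9 and 2501 on every array, so a common scaling by the authors was assumed. The summarising software is not given in the sources used here. Intensities were converted to log2(value + 16). Of 31099 probe sets, 57 array controls and those whose mean lay under the 40th percentile were left out, which left 18625 for the tests. Symbols are those of the platform annotation.

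Groups were compared with limma 3.58.1 in R 4.3.3, with 1 coefficient per group over all 8 arrays, variances that follow intensity and 4 residual degrees of freedom. Controls 3 and 1 were compared over the 6 control arrays with the field as a factor. P-values were adjusted by Benjamini-Hochberg over all probe sets tested, with a threshold of 0.05. The fit was run on simulated data with noise independent between arrays and with added differences. Error rates of the field and lesion contrasts under a shift shared by controls of the same number were not covered. Folds are on the log2(value + 16) scale and understate changes of dim probe sets. The members and lists were chosen with earlier results of these data known. All members are named, up to 4 genes per other list by the smallest p of the mean lesion effect, and the 12 genes most correlated with the members. Olig2, Ptprc, Itgam, Cx3cr1 and Tyrobp were named outside that rule, after their values were seen. So were the genes that passed for control 3 minus control 1 in the astrocyte and further myelin protein lists. Alternatives changed the normalisation, pseudocount, filter, variance model, probe sets, pairing and arrays.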

Additional observations from a re-analysis of the deposited data

Results flagged for a closer look

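The lesion array lay on opposite sides of the controls in the fields for 1 of the 16 probe sets, the dim Ugt8 probe set 1368857_at, which did not pass the filter on low values. Its CA1 lesion value of 7.58 on the log2 scale was above all CA1 controls (4.88, 5.93 and 6.72), and its CA3 lesion value of 4.76 was below all CA3 controls (6.27, 5.57 and 5.22). The lesion effect in CA3 minus that in CA1 was -2.66, a difference that was not tested. The brighter Ugt8 probe set had a difference of -1.28 (limma adjusted p = 1.0), with the lesion array above the control mean in both fields.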

How the results depend on the processing

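The count of 13 member probe sets for control 3 minus control 1 fell to 0 without an intensity trend in the variances. It was 6 of 6 tested without probe sets ending in _s_at, _x_at or _a_at, and 8 of 8 genes with the probe sets of a gene averaged, where fewer were tested. With 1 array left out it ran from 9 to 13. For the mean lesion effect the count was 0, and 2 without control 3 of both fields. It was 0 with each array left out in turn, as were the counts for the lesion effect in each field, for the fields and for the difference of the lesion effects.

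With the title number as a replicate block, 13 probe sets passed for the mean lesion effect, 13 for the lesion effect in CA1 and 12 in CA3, where 3.74%, 1.39% and 1.66% of all probe sets passed. That fit sets each lesion array mainly against control 1, whose number it shares, and the median over the 9 genes was 3.36 for the mean lesion effect. Deviations of same-numbered controls from their group means correlated across probe sets at 0.155 for control 1, 0.06 for control 2 and 0.306 for control 3. For controls of different numbers the correlations ran from -0.204 to 0.056, under all of these. The same-number values were low, and the main group fits did not take the numbers to pair the samples. The control 3 minus control 1 contrast does treat a number as shared by both fields. Whether the numbers pair the samples is not known. For CA3 minus CA1 the block left 0 of 13 member probe sets past the threshold (limma, smallest adjusted p = 0.177), with 3 at an unadjusted p under 0.05.

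Directions turned for differences between the fields and between the lesion effects, which had not passed. For CA3 minus CA1 controls, Mbp was 0.13 with quantile normalisation and 0.11 without control 3 of both fields, and Mobp -0.031 without control 1 of both fields. For the difference of the lesion effects, Mbp was -0.22 with quantile normalisation and -0.31 with probe sets averaged, and Cldn11 -0.16 with probe sets averaged. With 1 array left out, the CA3 minus CA1 differences ran from -1.04 to 0.56 for Mbp, -0.62 to 1.55 for Ugt8, -0.93 to 1.42 for Cldn11, -0.56 to 1.34 for Mog, -1.02 to 0.42 for Mag, -1.15 to 1.22 for Mobp, -1.0 to 0.40 for Cnp and -0.78 to 2.06 for Pllp. The differences of the lesion effects ran from -0.38 to 1.22 for Mbp, -1.10 to 1.24 for Cldn11, -1.49 to 0.41 for Mog, -0.61 to 0.83 for Mag, -1.30 to 1.07 for Mobp, -0.62 to 0.78 for Cnp and -2.39 to 0.45 for Pllp. The causes were not tested. The mean lesion effect and control 3 minus control 1 kept their direction for all 9 genes in the alternatives run. The count over all probe sets for CA3 minus CA1 was 98, and 0 without an intensity trend, 358 with the block and 5 without control 1 of both fields. For control 3 minus control 1 it was 840, and 0 without an intensity trend, 127 without CA1 control 3 and 108 without CA3 control 3.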
